A study of Drosophila melanogaster with 10 samples.

Results

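The cytosolic ribosomal protein genes were described in thoraces of adult male Drosophila melanogaster with and without a gut tumor. Members were all genes whose symbol was RpL or RpS followed by a digit, or began with RpLP, with symbols containing Psi (pseudogenes) left out. The rule uses no measured value, but earlier results of these data were known when it was chosen. The rule gave 92 of the 17563 genes in the files, and 83 of the 92 reached 2 RPKM in at least 1 library. RPKM is the number of reads per kilobase of merged exon (all annotated exons of a gene joined) and per 1000000 reads on genes. Levels of different genes can be compared only as far as that length fits the mRNA that is present. The tumor model, called Esg>yki, carried esg-Gal4 and tub-Gal80ts with the transgene pair UAS-GFP/UAS-yki-act, in which a driver of intestinal progenitor cells expresses an active form of the growth regulator yki once heat inactivates GAL80. Controls carried esg-Gal4 and tub-Gal80ts with UAS-GFP/+, so that driver, GAL80 and GFP were shared by both genotypes and only the yki transgene differed. RNA was taken from the thorax, outside the organ in which the driver is meant to act. Esg>yki thoraces were taken on days 2, 8, 14, 20, 26, 32 and 38 and control thoraces on days 2, 14 and 38, with 8 to 10 thoraces pooled per sample. Flies were at 29 °C through day 14, where the transgene is on, and at 18 °C after it, where GAL80 represses the driver, so the later days follow 6, 12, 18 and 24 days at 18 °C. Each of the 10 conditions was 1 library, so there was no replicate check, no test across samples and no p-value. Intervals cover counting error of the reads only, not differences between flies or preparations.

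Cytosolic ribosomes are built from ribosomal RNA and a large set of ribosomal proteins, split between a small subunit, which reads the mRNA, and a large subunit, which joins amino acids. Each ribosome needs about equal numbers of nearly every protein, their mRNAs are among the most abundant in most cells, and in Drosophila the loss of 1 gene copy of many of them gives the Minute phenotype of slow development and short bristles. Their transcription and translation respond to growth signals, among them TOR, S6k and Myc. Drosophila has few duplicated ribosomal protein genes, and several of the extra copies, among them RpL22-like, RpS5b, RpS10a and RpS19b, are best known from the germline.

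Total reads on genes ranged from 14615109 (Esg>yki day 38) to 38208955 (Esg>yki day 32). The share of reads from the mitochondrial genome lay between 24.3% and 32.5% in 9 libraries and was 46.9% in Esg>yki day 14, which lowers the share left for every nuclear gene in that library. Ratios are therefore given beside the median over all genes tested in the same comparison and beside 3 other scalings of the libraries. The thorax label was checked on fixed marker lists: all 8 flight muscle markers, 5 of 5 fat body markers, 4 of 4 hemocyte markers and 4 of 4 neuron markers were expressed. Digestive enzyme and other gut markers summed to 3.85 to 12.8 RPKM in 8 libraries, to 64.2 RPKM in Esg>yki day 2 and to 19.7 RPKM in Esg>yki day 38.

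The members together took 2.12% to 4.4% of all reads. In control thoraces the share was 2.82% on day 2, 3.65% on day 14 and 2.89% on day 38. In Esg>yki thoraces it was 2.52%, 2.53%, 2.12%, 3.30%, 3.43%, 4.4% and 2.96% on days 2, 8, 14, 20, 26, 32 and 38. The lowest share was thus that of Esg>yki day 14 and the highest that of Esg>yki day 32, the last time point but one at the lower temperature. Over reads on nuclear protein-coding genes alone the order changed. The share was then 3.95%, 5.36% and 4.02% in controls and 3.76%, 3.94%, 4.23%, 4.91%, 5.09%, 6.02% and 4.29% in Esg>yki thoraces. On that scale Esg>yki day 14 was above Esg>yki days 2 and 8, and it remained below the control of the same day. Esg>yki day 32 was the highest library on both scales, and Esg>yki day 2 became the lowest.

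**Figure D1:**
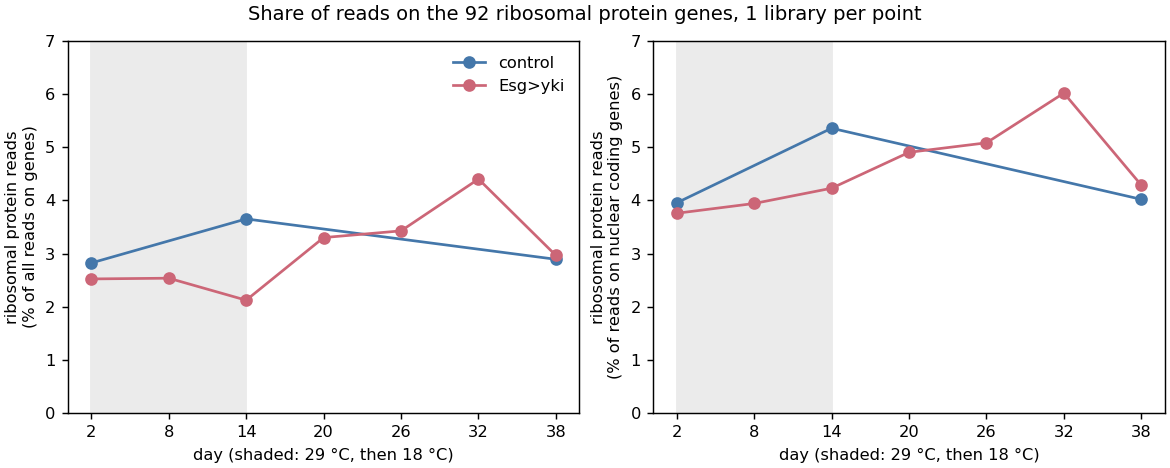
Share of reads from the 92 ribosomal protein genes (y axis, percent) by day (x axis), over all reads on genes and over reads on nuclear protein-coding genes, with 1 point per library for control and Esg>yki thoraces. Over all reads the Esg>yki points run from 2.12% on day 14 to 4.4% on day 32, and over nuclear protein-coding reads the day 14 point is at 4.23%, below the control point of 5.36%.

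Levels are given throughout in the order of days 2, 14 and 38 for controls and of days 2, 8, 14, 20, 26, 32 and 38 for Esg>yki thoraces. The 92 members lie on chromosome arms 2L (19), 2R (21), 3L (14) and 3R (23), on X (14) and on 4 (1). Within a library the members spanned a wide range although their proteins are needed in like amounts. Averaged over the 10 libraries, 72 members were above 100 RPKM. The highest were RpL39, a very small protein of the exit tunnel, at 1798 RPKM, RpS18 at 1533 RPKM, RpS3A at 1439.7 RPKM, the stalk protein RpLP1 at 1402 RPKM and RpL41, which encodes the shortest ribosomal protein, at 1223 RPKM. Among single-copy members the lowest were RpL23A at 16.5 RPKM, RpL28 at 27.0 RPKM, RpS26 at 61.0 RPKM, RpL8 at 94.3 RPKM and RpL13 at 104 RPKM. The merged exons of RpL28 and RpS26 span 1382 and 1864 bases, and how much of them is in the mRNA of the thorax was not tested. The value of RpL23A is uncertain, because 421 of its 1321 exon bases are shared on the same strand with the non-coding host gene Uhg7, and how reads on shared bases were assigned is not given in the sources used here. Exons of 32 members overlapped another gene, 10 of them on the same strand and 25 on the opposite strand.

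**Figure D2:**
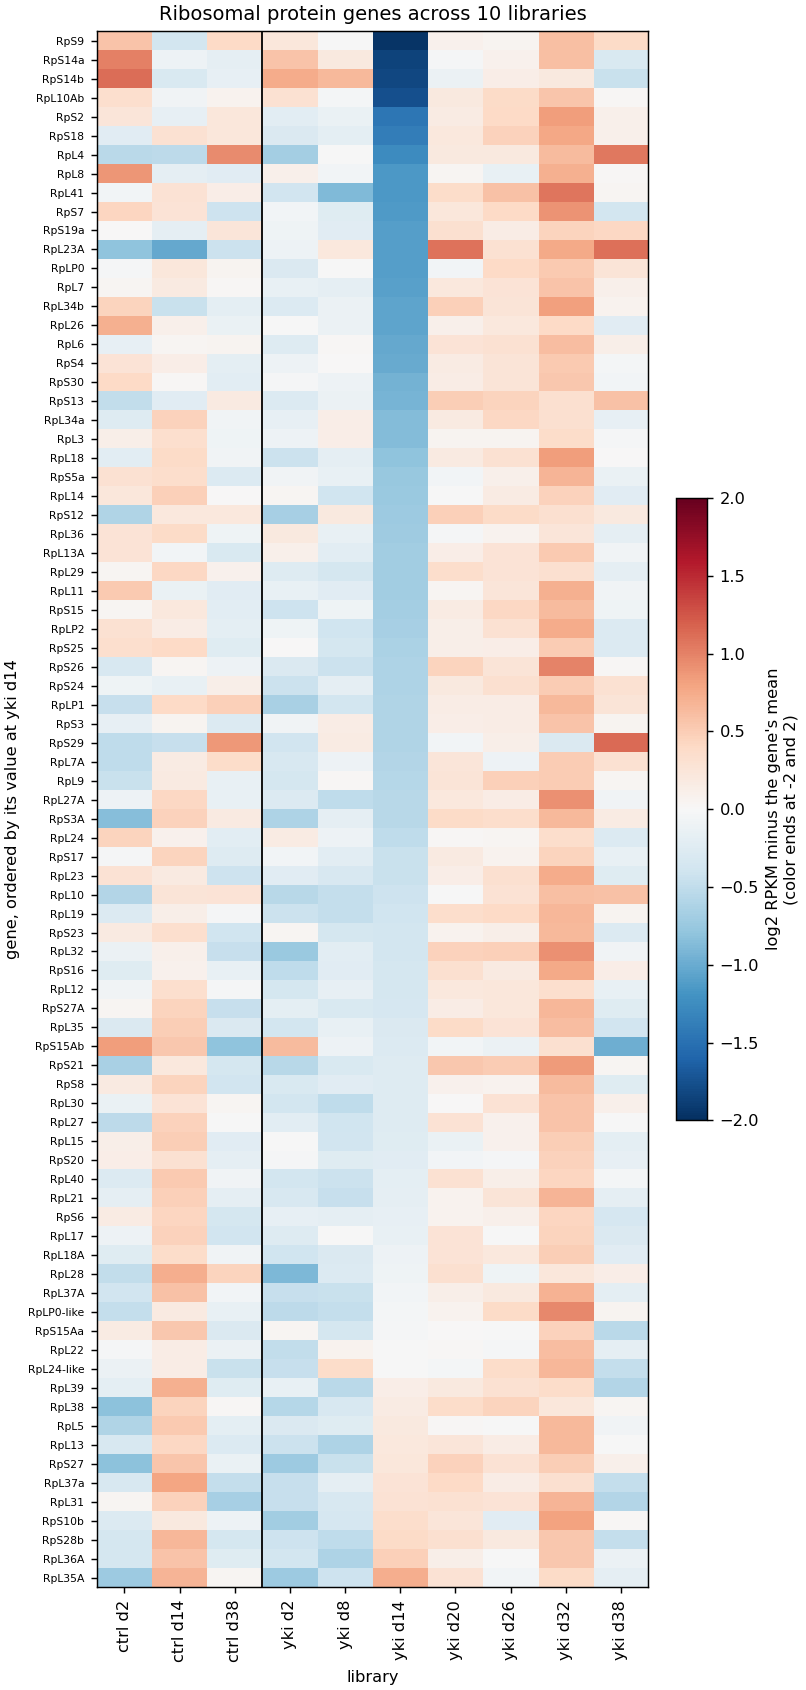
Level of 82 of the 83 expressed members in the 10 libraries (columns), as log2 of RPKM minus the member's mean over the libraries (color, which ends at -2 and 2), with members in rows ordered by their value in Esg>yki day 14. Over all 83 the lowest value was in Esg>yki day 14 for 44 members and the highest in Esg>yki day 32 for 54. These counts were 20 and 42 when levels were scaled to nuclear protein-coding reads. They were not made over all genes, so they do not show a pattern particular to the members.

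Of the 92 members, 9 stayed under 2 RPKM everywhere, and all 9 were extra copies or carried the suffix -like. RpS5b had 111 reads over the 10 libraries, with a highest level of 0.745 RPKM in control day 14. RpS19b had 45 reads, RpS28-like 35 and RpS10a 34, with highest levels of 0.460, 0.848 and 0.442 RPKM. RpL22-like had 8 reads, RpL10Aa 7, RpL37b 2 and RpS28a 1. RpL7-like was at 0 in all 10 libraries, but 1771 of its 1793 exon bases are shared on the same strand with CG34164, so its 0 gives no level. For the others a count of 3 reads, the limit that a count of 0 allows, stood for 0.0637 to 0.675 RPKM depending on gene and library. RpL10Aa and RpL22-like had 6 of 7 and 5 of 8 of their reads in control day 14. That library also held reads of the testis genes S-Lap7 (3.35 RPKM), loopin-1 (2.42 RPKM) and S-Lap1 (5.81 RPKM), which were at most 0.662 RPKM elsewhere, while ProtA, ProtB, ocn and Mst84Db were at 0 in each library but control day 14. Others of the testis list were highest elsewhere: Mst87F was at 2.48 RPKM in control day 14 and 3.17 RPKM in Esg>yki day 2, bol at 22.6 RPKM in control day 14 and 36.2 RPKM in control day 38, and fzo at 4.34 RPKM in control day 14 and 8.14 RPKM in Esg>yki day 20. The part of testis RNA in these counts was not tested.

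The rule gave 13 pairs of a main and an extra copy. In 8 of them the extra copy stayed under 2 RPKM everywhere and made up at most 1.63% of the summed RPKM of the pair, a value reached by RpS10a in Esg>yki day 2 from 10 reads. The other 5 extra copies were RpS14b, RpS15Ab, RpL34a, RpL24-like and RpLP0-like. These shares do not depend on how a library is scaled.

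RpS14a (chrX:7933742-7934677, Release 6 assembly, plus strand) and RpS14b lie side by side on X and encode the same small-subunit protein, which sits next to the decoding site. RpS14b made up 34.3, 29.5 and 32.7% of the RPKM of the pair in controls on days 2, 14 and 38. In Esg>yki thoraces its share was 35.3, 39.9, 33.0, 31.0, 33.3, 26.5 and 30.3% on days 2 to 38. The share stayed between 26.5% and 39.9% while both copies differed several-fold between libraries. RpS14a was at 617, 287 and 271 RPKM in controls and at 454, 351, 84.8, 304, 325, 466 and 249.5 RPKM in Esg>yki thoraces. RpS14b was at 321, 120.0 and 131 RPKM in controls and at 248, 233, 41.7, 136, 162, 168 and 109 RPKM in Esg>yki thoraces. Esg>yki day 14 was the lowest library for both copies and control day 2 the highest. Because the copies are near-identical, the split of reads between them is uncertain, and how shared reads were treated is not given, so their sum may be affected too.

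RpS15Ab, the lesser copy of RpS15A, made up 6.15, 3.95 and 2.82% of its pair in controls and 5.91, 4.69, 3.34, 3.83, 3.72, 3.64 and 2.97% in Esg>yki thoraces. Its share was highest on day 2 and lowest on day 38 in both genotypes. In percentage points, though not in fold, the share of RpL34a ranged most widely. RpL34a made up 32.5, 59.7 and 46.1% of its pair in controls and 46.1, 48.5, 47.4, 39.2, 46.7, 35.7 and 39.9% in Esg>yki thoraces. By RPKM it was the larger copy in control day 14 alone, but by reads without length it was 49.8% of the pair there. RpL34a was at 50.3, 83.3 and 57.5 RPKM in controls and RpL34b at 104, 56.3 and 67.1 RPKM. The genotypes already differed in this share on day 2 by more than counting error, with exact 95% intervals of 30.9% to 34.2% in the control and 44.4% to 47.8% in Esg>yki. Reads of both pairs may be split between near-identical copies in ways not stated, so these shares are uncertain too.

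RpL24-like and RpLP0-like are named for RpL24 and RpLP0, but their closest yeast relatives, Rlp24 and Mrt4, assemble the large subunit rather than stay in it. RpL24-like was at 118, 142 and 94.3 RPKM in controls and at 92.4, 165, 127, 124, 164, 203 and 91.7 RPKM in Esg>yki thoraces. RpLP0-like was at 12.1, 19.2 and 15.2 RPKM in controls and at 11.8, 12.2, 16.4, 17.8, 22.2, 32.8 and 17.5 RPKM in Esg>yki thoraces. Both thus stayed measurable in every library, and the share of RpLP0-like in its pair, 2.43% to 4.42% in the other libraries, was 6.64% in Esg>yki day 14. RpLP0 itself was at 484, 579.8 and 515 RPKM in controls and at 402, 491, 231, 477, 654, 708 and 589 RPKM in Esg>yki thoraces, with its lowest value in Esg>yki day 14.

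**Figure D3:**
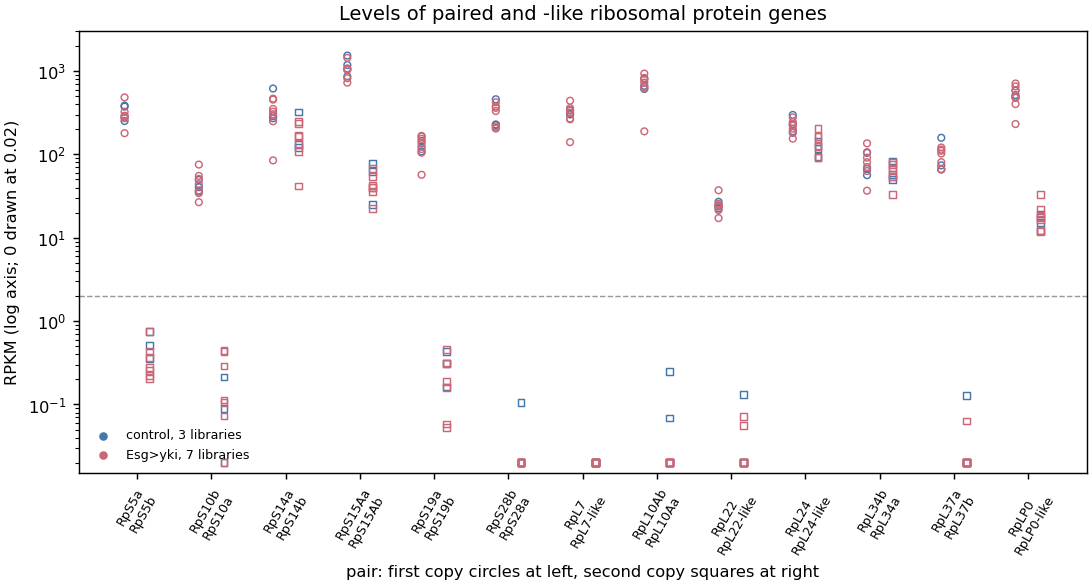
Level of both copies of the 13 pairs (x axis) in RPKM on a log axis (y axis), with main copies as circles, extra copies as squares, controls in blue, Esg>yki in red, 1 point per library, 0 drawn at the bottom edge and a dashed line at 2 RPKM. The extra copies of 8 pairs lie below the line in all 10 libraries, while RpS14b, RpS15Ab, RpL34a, RpL24-like and RpLP0-like lie above it in each.

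The first comparison asks what happened to these mRNAs as the tumor grew, from day 2 to day 14 in Esg>yki thoraces. The median log2 ratio of the 83 expressed members was -0.22, against -0.02 over all 8433 genes tested, and it turned to 0.20 when libraries were scaled to nuclear protein-coding reads, on which scale all genes had a median of 0.43. The median of the members minus that of all genes was -0.20 on the scale used here and -0.23 to -0.20 on the other 3. Single members ranged from -2.57 to 1.44. Of the 83, 11 were lower past 2-fold, beside 19.0% of all genes tested, and 2 were higher, beside 12.8%. With nuclear protein-coding reads as the scale 4 were lower, beside 11.9% of all genes, and 10 higher, beside 25.9%. The median of the 436 other nuclear protein-coding genes that averaged at least 100 RPKM was -0.68, below that of the members. Bulk RNA cannot tell fewer cells of a type from less RNA per cell.

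The members that were lower by more than 2-fold under each of the 4 scalings were RpS14b, RpS14a, RpS9 and RpL10Ab. The share of all genes that pass this rule was not computed. RpS9 (chr3L:9509793-9511531, minus strand), a small-subunit protein next to the channel through which mRNA enters, was at 773, 401 and 683 RPKM in controls and at 609, 519, 134, 549, 541, 783 and 676 RPKM in Esg>yki thoraces. Its level in Esg>yki day 14 was 4.55-fold below day 2, a log2 ratio of -2.19 (95% exact interval -2.23 to -2.14), and every other library was at 401 RPKM or above. RpS9 shares 512 of its 1018 exon bases with an antisense non-coding gene on the opposite strand, asRNA:CR45874. RpL10Ab (chr3L:11822851-11824211, plus strand) makes the large-subunit protein RpL10A, part of the mobile L1 stalk, and was at 806, 608 and 664 RPKM in controls and at 788, 617, 189, 727, 826, 932 and 643 RPKM in Esg>yki thoraces. It was 4.17-fold lower on day 14 than on day 2, with a log2 ratio of -2.06 (95% exact interval -2.10 to -2.02). RpL10Ab was thus low in 1 library of 10, as RpS9 was. The log2 ratio was -2.42 (95% exact interval -2.49 to -2.36) for RpS14a and -2.57 (95% exact interval -2.68 to -2.46) for RpS14b. The next lowest single-copy members were RpL8, near the site of peptide bond formation, at -1.25, RpS2 at -1.23, RpS18 at -1.10 and RpS7 at -1.08.

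In the other direction RpL35A was the furthest. It was at 126, 334 and 214 RPKM in controls and at 126, 156, 344, 254, 201, 273 and 183 RPKM in Esg>yki thoraces, so that day 14 was highest in both genotypes. Its log2 ratio of day 14 to day 2 was 1.44 (95% exact interval 1.38 to 1.51) in Esg>yki thoraces and 1.40 in controls. RpS10b, the main copy of RpS10, had a log2 ratio of 1.05 in Esg>yki thoraces, and was at 35.8, 49.4 and 40.3 RPKM in controls and at 26.7, 34.3, 55.2, 50.8, 36.9, 75.5 and 43.9 RPKM in Esg>yki thoraces. RpS27, RpL36A, RpL28 and RpL31 followed among single-copy members with log2 ratios of 0.96, 0.85, 0.81 and 0.75. The spread among members was thus wide, and neither exon length (r = -0.01 across the 83 members, a description only) nor the level in control day 2 (r = -0.30) ordered them closely.

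The same interval in controls gave a median log2 ratio of 0.34 over the members and 0.34 over all 8327 genes tested, and it was -0.02 with edgeR's TMM factors and -0.01 with DESeq2's size factors. The median of the members was therefore close to that of all genes in controls, with a difference of -0.0046 (members minus all genes). In Esg>yki thoraces the difference was -0.20. The 436 other nuclear protein-coding genes that averaged at least 100 RPKM had a median of 0.01 in controls, below that of the members, as in Esg>yki thoraces. Higher past 2-fold were 8 of 83, beside 15.3% of all genes, and lower 3, beside 4.83%. With TMM or DESeq2 factors 2 were higher, beside 7.8% to 7.9% of all genes, and 6 lower, beside 8.4%. The 3 on the scale used here were RpS14a, RpS14b and RpL8. RpS14a had a log2 ratio of -1.10 in controls and RpS14b of -1.42, so both copies were lower on day 14 in both genotypes, and the Esg>yki ratio minus the control ratio was -1.32 for RpS14a and -1.15 for RpS14b. RpL8 was at 163, 78.3 and 75.7 RPKM in controls and at 94.7, 85.1, 39.7, 90.8, 80.1, 145 and 90.3 RPKM in Esg>yki thoraces, and its log2 ratio of -1.06 in controls was close to the -1.25 in Esg>yki thoraces. RpS18 was higher in controls, with 1226, 1784 and 1685 RPKM, and lower in Esg>yki thoraces, with 1180.1, 1253, 549.5, 1670.3, 1980.1, 2459 and 1539 RPKM.

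The order of the members was similar in the 2 genotypes. The log2 ratios of day 14 to day 2 in Esg>yki and in control thoraces share no library. Across the 83 members they had a Pearson's r of 0.815 and a Spearman's rho of 0.78. Across 8922 other genes, not matched to the members in level, the r was 0.54 and the rho 0.68. For day 38 over day 14 the r was 0.859 and the rho 0.85 across members, beside 0.48 and 0.59 across 8932 other genes. These are descriptions across genes, which are not independent replicates, and within a genotype the members share their libraries. On the scale used here 20 members were lower on day 14 in both genotypes, 31 were higher in both, 32 were lower in Esg>yki and higher in controls, and 0 were the reverse. Of the 8922 other genes these counts were 2281, 4113, 2177 and 351.

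**Figure D4:**
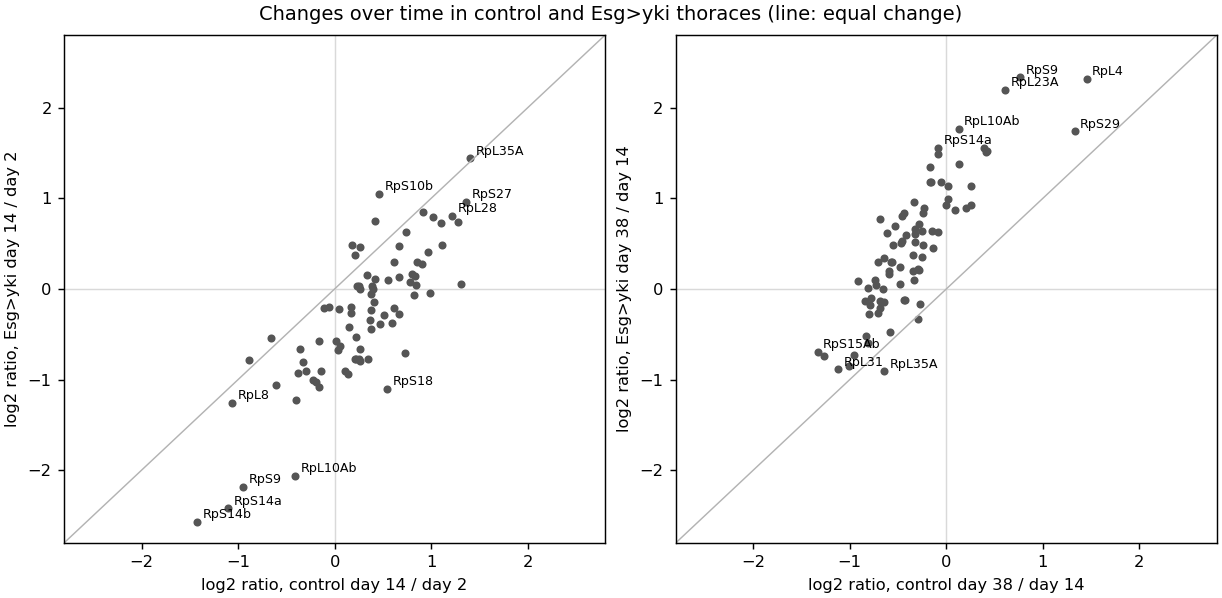
Log2 ratio of each of the 83 expressed members in Esg>yki thoraces (y axis) against the same ratio in control thoraces (x axis), for day 14 over day 2 and for day 38 over day 14, with 1 point per member and a diagonal of equal change. The members follow a rising band in both panels (r = 0.815 and 0.859). It lies below the diagonal for 75 of 83 members in the first panel and above it for 81 in the second. These counts were 58 to 60 and 72 to 75 under the other 3 scalings, and they were not made over all genes. Both panels use the day 14 library of each genotype, so their counts are not independent.

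The direct comparison of genotypes on day 14 asks what differed after the whole induction at 29 °C. Members were lower in Esg>yki thoraces, with a median log2 ratio of -0.71, which was -0.27 to -0.41 under the other 3 scalings. All 8368 genes tested had a median of -0.36, so the members' median minus that of all genes was -0.35 on this scale and -0.37 to -0.36 on the others. In all, 81 members were lower and 2 higher, while 72.3% of all genes were lower. Under the other 3 scalings 68 to 71 members were lower and 12 to 15 higher. Past 2-fold 23 of the 83 (27.7%) were lower, beside 17.0% of all genes, and 0 were higher, beside 2.99%. Relative to the median of all genes 7 members (8.04% of all genes were called by that rule) were lower past 2-fold and 0 higher, beside 6.32%. The share of calls was thus above that of all genes on the scale used, and close to it once the median was taken out. The 436 other genes above 100 RPKM had a median of -0.72, near that of the members.

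RpS18, RpS14a, RpS14b, RpL41, RpL10Ab and RpS9 were lower by more than 2-fold under each of the 4 scalings, a rule not applied to all genes. RpL10Ab had a log2 ratio of -1.69 (95% exact interval -1.73 to -1.64) to the control of the same day, RpS14a of -1.76 (95% exact interval -1.83 to -1.69) and RpS14b of -1.53. RpS18 was 3.25-fold below the control, a log2 ratio of -1.70 (95% exact interval -1.73 to -1.67), and RpS9 had a log2 ratio of -1.58. RpL41 was at 1075, 1367 and 1218 RPKM in controls and at 854, 604, 502, 1434, 1678, 2356 and 1141 RPKM in Esg>yki thoraces, with a log2 ratio of -1.45 on day 14. RpS7 and RpS2 followed at -1.41 and -1.28. At the other end were RpL35A at 0.04, RpL23A at -0.07, RpL36A at -0.08, RpS29 at -0.13 and RpL31 at -0.16. Both subunits were lower, with a median of -0.67 over the 50 large-subunit and stalk members and -0.78 over the 33 small-subunit members. Members that were high in control day 2 tended to lower ratios (r = -0.49 across 83 members).

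**Figure D5:**
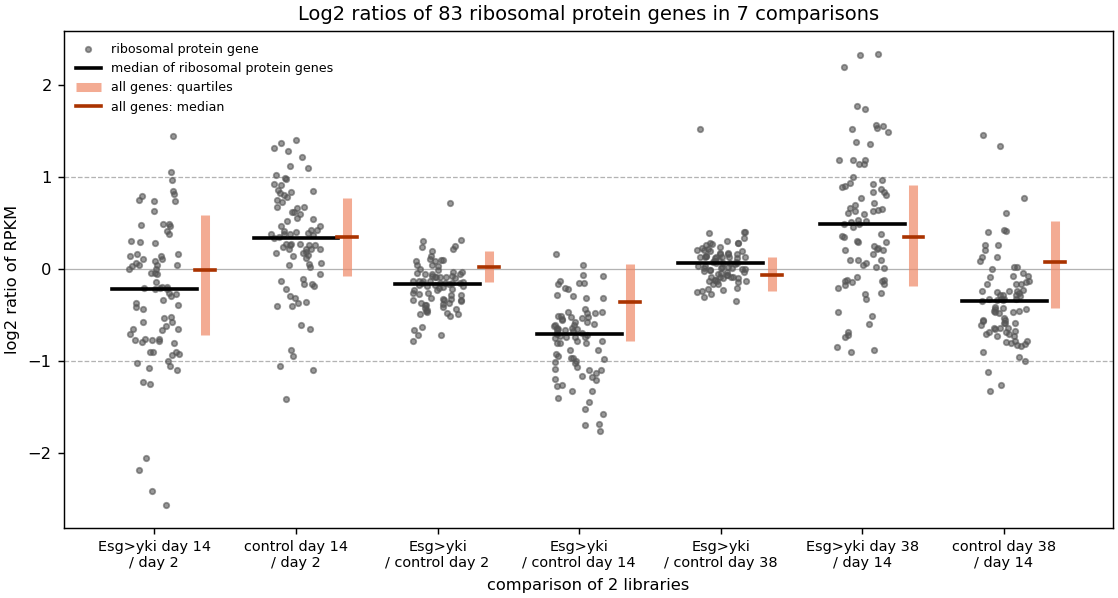
Log2 ratios of the 83 expressed members (points) in the 7 main comparisons, with the median of the members as a black line and the median and quartiles of all genes tested in orange. The member median is -0.71 for Esg>yki over control on day 14, where all genes have -0.36, and 0.06 on day 38, where all genes have -0.06, while the signs of the medians for day 14 over day 2 turn with the scaling in both genotypes.

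Cell type markers moved between the same libraries, and their part in the ribosomal protein values was not tested. The 8 flight muscle markers summed to 6607, 5919 and 2923 RPKM in controls and to 6020.4, 3616, 1645, 1541, 2814, 3624 and 4011 RPKM in Esg>yki thoraces, and 3 of the 8 were lower past 2-fold in Esg>yki than in control thoraces on day 14, beside 17.0% of all genes lower and 2.99% higher. The 5 fat body markers in the files summed to 906, 2433 and 2476 RPKM in controls and to 1197, 935, 813, 1851, 2163, 2300.5 and 2145 RPKM in Esg>yki thoraces, and all 5 were lower past 2-fold on day 14 (4 with TMM factors or nuclear protein-coding reads). Of 15 testis markers 6 were tested and 4 were lower past 2-fold, while the 4 hemocyte and 4 neuron markers had 0 past 2-fold in either direction, although 2 neuron markers were higher with TMM factors and 3 with nuclear protein-coding reads.

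On day 2, early in induction, the members were already lower in Esg>yki thoraces at the median, though none past 2-fold. The median log2 ratio of the members was -0.17, against 0.02 over all 8093 genes tested, and it stayed below 0 under the other 3 scalings (-0.20 to -0.08). The members' median minus that of all genes was -0.19 under each of the 4 scalings. By more than counting error 63 members were lower and 14 higher. No member was past 2-fold, beside 3.68% of all genes that were higher and 0.951% that were lower. In all, 66 members were lower and 17 higher, while 46.9% of all genes were lower. On day 38, after the return to 18 °C, the median was 0.06, against -0.06 over all 8551 genes, and it was 0.10 to 0.12 under the other 3 scalings. RpL23A was the 1 member past 2-fold (3.79% of all genes were higher and 1.53% lower), with a log2 ratio of 1.52 (95% exact interval 1.30 to 1.73). RpL23A, whose protein lies at the mouth of the exit tunnel, was at 8.14, 7.0 and 10.7 RPKM in controls and at 13.4, 16.6, 6.66, 30.4, 17.6, 24.3 and 30.5 RPKM in Esg>yki thoraces. Its level was above that of every control library in each Esg>yki library but that of day 14. These values are uncertain because 421 of its 1321 exon bases are shared on the same strand with Uhg7, which the interval does not cover. The ratios of genotypes on day 14 had an r of 0.22 with those of day 2 and of 0.32 with those of day 38 across the 83 members.

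The remaining libraries follow Esg>yki thoraces day by day, before and after the yki transgene was switched off. From day 2 to day 8 members had a median log2 ratio of 0.03 (-0.35 to 0.09 under the other 3 scalings), and 0 were past 2-fold, beside 13.2% of all genes higher and 7.32% lower. From day 8 to day 14 the median was -0.24 and turned to 0.11 to 0.13 under the other 3 scalings. In this step 13 members were lower past 2-fold, beside 14.5% of all genes, and 2 were higher, beside 2.50%. Relative to the median of all genes 4 were lower, beside 6.10% of all genes, and 7 higher, beside 5.69%. From day 14 to day 20, the first 6 days at 18 °C, members had a median log2 ratio of 0.72, which was 0.28 to 0.30 under the other 3 scalings, against 0.42 over all genes. Higher past 2-fold were 24 of 83, beside 17.5% of all genes, and 0 were lower, beside 1.76%. Relative to the median of all genes 11 were higher, beside 7.74% of all genes, and 0 lower, beside 5.50%. From day 20 to day 26 the median was 0.02 (0.02 to 0.14 under the other scalings), and 0 members were past 2-fold, beside 3.07% of all genes higher and 3.18% lower. From day 26 to day 32 it was 0.39 (0.27 to 0.31 under the other scalings), with 78 members higher and 5 lower, beside 31.4% of all genes lower. Past 2-fold 1 was higher, beside 0.870% of all genes, and 0 were lower, beside 1.51%. From day 32 to day 38 it was -0.66, with 4 higher and 79 lower, beside 59.9% of all genes lower. All genes had medians of 0.12 and -0.11 in these steps. The median of the last step was the lowest of the 6 steps between Esg>yki time points, and it was -0.64 to -0.58 under the other 3 scalings. Lower past 2-fold in it were 8 members, beside 3.85% of all genes, and 1 was higher, beside 3.87%. Day 32 was the highest Esg>yki library for 70 of the 83 members (53 when scaled to nuclear protein-coding reads). This count was not made over all genes, so it does not show a pattern particular to the members.

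Over the whole interval from day 14 to day 38 the Esg>yki median was 0.48 (0.02 to 0.14 under the other scalings), against 0.35 over all genes. Higher past 2-fold were 17 of 83, beside 22.0% of all genes, and 0 were lower, beside 5.73%. Under the other scalings 10 to 12 were higher, beside 11.25% to 13.43% of all genes, and 6 to 7 lower, beside 11.29% to 14.34%. The same interval in controls gave -0.35 (-0.46 to -0.43 under the other scalings), against 0.07 over all genes, with 2 higher, beside 7.79%, and 4 lower, beside 8.95%. The members' median minus that of all genes was thus 0.14 in Esg>yki thoraces and -0.42 in controls. The members furthest up in Esg>yki were RpS9 at 2.34, RpL4, which lines the exit tunnel, at 2.32, RpL23A at 2.20, RpS29 at 1.74 and RpS2 at 1.56. The furthest down were RpL35A at -0.91, RpL31 at -0.88, RpL39 at -0.72 and RpL36A at -0.60. This comparison and that of day 14 with day 2 share the Esg>yki day 14 library.

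RpS29 and RpL4 were the 2 members higher past 2-fold in controls from day 14 to day 38. RpS29, a small-subunit protein that binds zinc, was at 280.2, 289.6 and 728 RPKM in controls and at 307, 449.8, 264, 385, 435, 326 and 881 RPKM in Esg>yki thoraces. RpL4 was at 98.2, 99.2 and 272 RPKM in controls and at 88.3, 141, 59.2, 162, 162, 219 and 295 RPKM in Esg>yki thoraces. Both were highest on day 38 in each genotype, and their log2 ratios of day 38 to day 14 in controls were 1.33 (95% exact interval 1.29 to 1.37) and 1.46 (95% exact interval 1.40 to 1.51). RpL23A and RpS13 were also highest on day 38 in each genotype, and RpL4, RpS13 and RpS29 were so under all 4 scalings. The 4 lower past 2-fold were RpS15Ab at -1.33, RpL37a at -1.26, RpL31 at -1.12 and RpS28b at -1.01.

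Members with a second role were looked at one by one. RpL40 and RpS27A are made as fusions with ubiquitin, and RpS30 as a fusion with a ubiquitin-like protein. RpL40 was at 362, 631 and 417 RPKM in controls and at 339.7, 325, 380.1, 540.4, 474, 587 and 425 RPKM in Esg>yki thoraces. RpS27A was at 824, 1092 and 581 RPKM in controls and at 702, 646, 635, 890.4, 933, 1271 and 677 RPKM in Esg>yki thoraces. RpS30 was at 619, 477 and 407 RPKM in controls and at 464, 439, 244, 519.9, 561, 683 and 453 RPKM in Esg>yki thoraces. RpS30 was lowest in Esg>yki day 14, RpL40 in Esg>yki day 8 and RpS27A in control day 38. On day 14 the log2 ratio of Esg>yki to control was -0.73 for RpL40, -0.78 for RpS27A and -0.97 for RpS30, none past 2-fold. RpS6, whose protein is the best known substrate of S6k, was at 409.9, 493 and 285 RPKM in controls and at 326, 323, 326, 382, 391, 494 and 288 RPKM in Esg>yki thoraces, with a log2 ratio of -0.60 on day 14. The acidic stalk proteins, which call translation factors to the ribosome, were more varied. RpLP1 was at 974, 1753 and 1861 RPKM in controls and at 853, 1038, 876, 1480.5, 1474, 2104 and 1603 RPKM in Esg>yki thoraces, and on day 14 it was just past 2-fold below the control, a call lost under the other 3 scalings (-0.70 to -0.56, log2). RpLP2 was at 598, 533 and 421 RPKM in controls and at 456, 365, 305, 521, 597, 802 and 396 RPKM in Esg>yki thoraces, and its log2 ratio was -0.80. RpLP0, which anchors the other stalk proteins, had a log2 ratio of -1.33 on day 14, which was -1.02 to -0.88 under the other 3 scalings and past 2-fold only with DESeq2 size factors among them.

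Ribosomal proteins and partners that the symbol rule misses were looked at from fixed lists. The ribosomal proteins sta (RpSA) and Rack1 were both lower past 2-fold in Esg>yki than in control thoraces on day 14, at -1.16 and -1.32 (log2). In that comparison 17.0% of all genes were lower past 2-fold and 2.99% higher. Under the other 3 scalings sta was at -0.86 to -0.72, not past 2-fold, and Rack1 at -1.02 to -0.88, past 2-fold only with DESeq2 size factors. The ribosomal protein sta was at 383, 437 and 223 RPKM in controls and at 293, 395, 196, 368, 319, 449 and 239.9 RPKM in Esg>yki thoraces. The median log2 ratio of 10 elongation and release factors was -0.69, against -0.36 over all genes. Of these factors 2 were lower past 2-fold, beside 17.0% of all genes, and 0 higher, beside 2.99%. The elongation factor eEF2 was 1 of them, at 1192, 1317 and 2132 RPKM in controls and at 1064, 1073, 585, 1246, 1757, 2569 and 2151 RPKM in Esg>yki thoraces, with a log2 ratio of -1.17 on day 14 (-0.87 to -0.73 under the other 3 scalings). Of 30 initiation factors tested 1 was lower past 2-fold, of 34 ribosome biogenesis genes 3 and of 4 genes of RNA polymerase I and rDNA transcription 0, with medians of -0.51, -0.43 and -0.35 and no gene higher past 2-fold. The shares of all genes beside these counts were the same 17.0% lower and 2.99% higher. Under the other 3 scalings 0 genes of these 4 lists were past 2-fold, with medians of -0.39 to -0.25 for elongation and release, -0.21 to -0.072 for initiation, -0.12 to 0.016 for biogenesis and -0.047 to 0.094 for RNA polymerase I. Of all genes 6.55% to 8.85% were lower past 2-fold under those scalings and 5.58% to 8.48% higher, with medians of -0.046 to 0.10. The 24 regulators of TOR and Myc signalling had a median of 0.24, with 4 higher past 2-fold and 0 lower, beside the same 2.99% and 17.0% of all genes. The other 3 scalings gave 4 higher as well, beside 5.58% to 8.48% of all genes, with medians of 0.54 to 0.68.

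Single regulators followed their own course. Myc, the transcription factor that drives ribosomal genes, was at 4.52, 13.7 and 23.9 RPKM in controls and at 4.61, 21.8, 36.2, 31.4, 15.3, 16.7 and 26.2 RPKM in Esg>yki thoraces. Its level was highest in Esg>yki day 14. Thor, a repressor of translation that TOR inactivates, was at 11.9, 8.57 and 19.9 RPKM in controls and at 10.5, 24.6, 29.1, 43.1, 10.4, 13.6 and 15.6 RPKM in Esg>yki thoraces, with a log2 ratio of 1.77 on day 14. S6k was at 7.67, 13.8 and 15.6 RPKM in controls and at 7.85, 16.1, 19.9, 21.9, 14.1, 15.1 and 17.2 RPKM in Esg>yki thoraces, with a log2 ratio of 0.53 on day 14. These are mRNA levels, which say nothing of the activity of the kinases.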

How the data were processed

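RNA from pooled thoraces was sequenced as 1 library per condition on a NextSeq 500 with 75-base reads. The authors deposited estimated counts of reads per gene, 1 file per library, neither scaled to depth nor to gene length. Per the submitters' processing notes and the methods, STAR 2.7.2b and FlyBase release 6.30 were used. The notes also list a mouse build, but 99.7% of the gene numbers matched the fly annotation. The deposited counts are multiples of 0.25 and were taken as means over the 4 pools of a library, so reads are 4 times the value. Genes were matched by FBgn number to the Ensembl 115 annotation (Release 6 assembly), and the 57 of 17563 genes without a length were left out. RPKM was computed from reads, total reads on genes and merged exon length.

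A log2 ratio used no pseudocount and at least 2 RPKM in the larger library, and past 2-fold means above 1 or below -1. Single genes carry the 95% exact (Clopper-Pearson) binomial interval of their reads. No model across genes was fitted. The alternatives were edgeR 4.0.16 TMM factors, DESeq2 1.42.0 size factors, reads on nuclear protein-coding genes, a pseudocount of 1 RPKM, a minimum of 10 RPKM or none, other days, and members without overlaps. Named in the text were all pairs and -like genes, the 5 highest and 5 lowest single-copy members by level and by 3 main ratios, fusions, stalk proteins and RpS6, and members past 2-fold in small counts were named after their values were seen. The values of 1 member that this rule names are not reported here. The members and lists were chosen with earlier results of these data known. The calculation was tested on simulated data. Python 3.11.15, pandas 2.3.3 and R 4.3.3 were used.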

Additional observations from a re-analysis of the deposited data

Results flagged for a closer look

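On the scale used here these results had opposite signs in the 2 genotypes over the same interval. The difference was not tested, since each condition was 1 library. From day 2 to day 14 the median log2 ratio of the 83 expressed members was -0.22 in Esg>yki thoraces and 0.34 in controls, and the sign of each turned under another scaling of the libraries. From day 14 to day 38 it was 0.48 in Esg>yki thoraces and -0.35 in controls, with the same signs under each scaling tried.

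Among members, RpS18 had a log2 ratio of -1.10 in Esg>yki thoraces and 0.54 in controls from day 2 to day 14. From day 14 to day 38 it had 1.49 and -0.082. Over that later interval RpLP0 had 1.35 in Esg>yki thoraces and -0.17 in controls, RpL7 had 1.18 and -0.16, and RpS14a had 1.56 and -0.083. RpL41 had 1.19 and -0.17, and RpL8 had 1.18 and -0.049. The control value of RpL8 was thus near no change, and its sign carries little weight. The Esg>yki day 14 library, which had 46.9% of its reads on the mitochondrial genome, stands in all of these ratios of Esg>yki thoraces. The control day 14 library likewise stands in all of the ratios of controls.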

How the results depend on the processing

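No paired analysis was possible because each condition was 1 library and the labels give no replicate numbers. The scaling of the libraries moved most medians, and the cause was not tested. With TMM factors the median log2 ratio of the members was -0.21 for Esg>yki day 14 over day 2, -0.016 for control day 14 over day 2 (reversed from 0.34), -0.19, -0.37 and 0.10 for Esg>yki over control on days 2, 14 and 38, 0.072 for Esg>yki day 38 over day 14 and -0.46 for control day 38 over day 14. With DESeq2 size factors these were -0.24, -0.011 (reversed), -0.20, -0.41, 0.10, 0.14 and -0.43. With nuclear protein-coding reads they were 0.20 (reversed from -0.22), 0.40, -0.079, -0.27, 0.11, 0.018 and -0.43.

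The count past 2-fold between genotypes on day 14 was 7 with TMM factors, 9 with DESeq2 size factors and 6 with nuclear protein-coding reads, in place of 23. All of these were lower, beside 8.16%, 8.85% and 6.55% of all genes lower under the same 3 scalings. Splits moved as well. Esg>yki day 14 over day 2 had 10 higher and 4 lower with nuclear protein-coding reads (2 and 11 before). Control day 14 over day 2 had 2 higher and 6 lower with TMM or DESeq2 factors and 10 and 2 with nuclear protein-coding reads (8 and 3 before). With nuclear protein-coding reads 17.4% of all genes were higher and 4.34% lower in that comparison. Esg>yki day 38 over day 14 had 10 and 7, 12 and 6, and 10 and 7 (17 and 0 before).

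A pseudocount of 1 RPKM gave -0.70 between genotypes on day 14, and a minimum of 10 RPKM gave -0.72 there and 0.34 for control day 14 over day 2. Without a minimum the medians were -0.215 for Esg>yki day 14 over day 2, 0.34 for controls, -0.72 between genotypes on day 14, 0.47 for Esg>yki day 38 over day 14 and -0.42 for controls. With no minimum 1 member was also past 2-fold between genotypes on day 2, beside 6.9% of all genes higher and 4.1% lower. Taking Esg>yki day 8 in place of day 14 gave a median of 0.027 over day 2 (reversed) and 0 members past 2-fold, beside 13.2% of all genes higher and 7.32% lower. Taking Esg>yki day 32 in place of day 38 gave 0.73 and 16 members against control day 38, beside 4.51% of all genes higher and 2.69% lower. Against day 14 it gave 1.08 and 48 members, beside 24.05% of all genes higher and 3.645% lower. Leaving out members with overlapping exons, chosen after seeing the data as were the counts with days 8 and 32 and the median of 1.08, gave -0.78 between genotypes on day 14. By reads without length, the lesser copies in Esg>yki day 14 took 25.1% (RpS14b), 2.59% (RpS15Ab), 37.7% (RpL34a), 33.5% (RpL24-like) and 4.83% (RpLP0-like) of their pairs.

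The main limit is the single library per condition. Depth chiefly limits the 9 members under 2 RPKM. Of the other values, 13 medians kept their direction and moved little, and 31 counts stayed near their totals, some with the changed splits given above.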
